A study of Mus musculus with 4 samples.

Results

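Presynaptic release genes were described here in single nuclei of mouse hippocampus: 37 genes of synaptic vesicles and of the SNARE fusion machinery, chosen by symbol from the 27998 genes of the count tables. All 37 were found. They comprise vesicle membrane and coat proteins (Sv2a, Sv2b, Sv2c, Syp, Syngr1, Syn1, Syn2, Syn3), synaptotagmins (Syt1, Syt2, Syt4, Syt5, Syt7, Syt11, Syt13, Syt17), SNARE proteins and their regulators (Snap25, Stx1a, Vamp1, Vamp2, Nsf, Stxbp5, Cplx1, Cplx2), active zone and priming proteins (Rims1, Rims2, Rims3, Unc13a, Unc13b, Unc13c, Bsn, Pclo), and Rab3a, Rab3c, Dnm1, Snap91 and Sncb.

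A synaptic vesicle is docked at the active zone, primed, and fused with the plasma membrane when calcium enters the terminal. Fusion is driven by a helical bundle of synaptobrevin (Vamp1, Vamp2) on the vesicle with syntaxin (Stx1a) and Snap25 on the plasma membrane. Complexins clamp and promote the bundle, synaptotagmins sense the calcium, and the ATPase Nsf takes the bundle apart afterwards. The release machinery acts in axon terminals, while nuclei hold the transcripts newly made in the cell body.

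The animals were B6 mice, 9 months old in every group. The WT library came from mice with neither change, EKO from mice lacking Apoe, P301S from mice transgenic for human tau bearing the P301S change, and P301S/EKO from tau transgenic mice that also lack Apoe. Each library pooled the hippocampi of several mice of 1 genotype: 7 for WT, 7 for EKO, 8 for P301S and 7 for P301S/EKO. Other genotypes of the study were not analysed here. In P301S tau lines in common use the mouse prion promoter drives the transgene broadly in neurons; the labels used here name neither line nor promoter. Because a genotype has 1 library, a difference between genotypes is a difference between 2 pools, with no replicate check and no p-value. Intervals below are 95% and cover counting error only.

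After filtering, 18677 nuclei remained: 5263 WT, 5222 EKO, 2865 P301S and 5327 P301S/EKO. Per-library values below keep that order. Median UMIs (unique transcript molecules) per kept nucleus were 1904, 1445, 2142 and 1424, so both libraries without Apoe were the shallower. Apoe stood at 1935, 16.3, 6403 and 19.9 CPM (a gene's UMIs scaled by all UMIs of the class), which matches the genotype labels. Pairs of libraries shared 13 to 50 kept barcodes. Clusters were named from marker genes as dentate granule-like, CA1-like, CA2/CA3-like, subicular or cortical excitatory-like and inhibitory-like, and no member is among those markers. A further 1673 nuclei, led by Dcn, Nts and Fn1, stayed unnamed and were counted with all neurons only. The P301S library held 155 dentate-like nuclei against 654, 1346 and 996 in the other libraries. Its values in that class rest on fewer counts than those of the other libraries.

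The 37 members together took a similar part of neuronal RNA in the 4 libraries. Their summed level over all neurons was 6057, 6275, 6537 and 6101 CPM in the 4 libraries. By class and library it ran from 5314 CPM in CA1-like nuclei of WT to 7233 CPM in subicular or cortical nuclei of P301S. Taken singly, many members differed more than that between classes. Between the classes of highest and lowest mean level, 13 members differed at least 3-fold, 17 differed 1.5-fold to 3-fold, and 7 differed less than 1.5-fold. The class of highest mean level was inhibitory for 14 members, subicular or cortical for 10, dentate for 7, CA2/CA3 for 5 and CA1 for 1. For 20 of the 37 the same class was highest in all 4 libraries. The classes were made by clustering the same counts, so these differences are given as a description. How many of all genes pass the same lines was not counted, so the counts have no background beside them. Among the 13, Syt2, Unc13c, Rims3, Sv2c and Syn3 had lowest class means of 0.876 to 3.21 CPM.

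**Figure D1:**
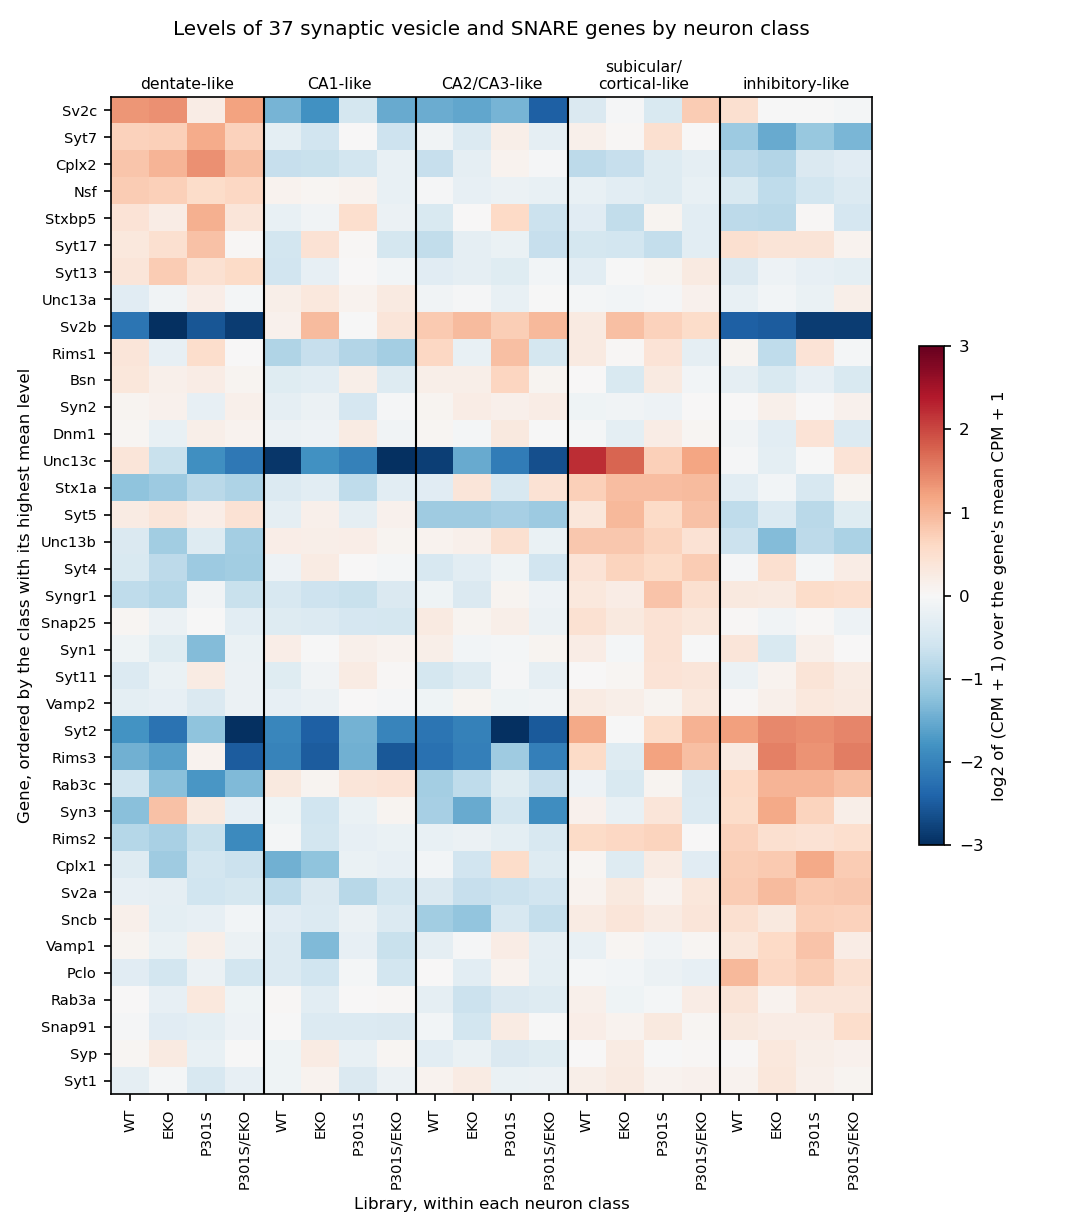
Level of each of the 37 genes (rows) in each of the 4 libraries within 5 neuron classes (columns), as log2 of CPM + 1 relative to the gene's own mean over the 20 columns plus 1; red is above and blue below that mean. Sv2b is dark blue in every dentate-like and inhibitory-like column, while Syt1, Syp and Dnm1 are pale across the whole row.

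The SV2 proteins, glycoproteins of the vesicle membrane, differed between the neuron classes in opposite ways. Sv2b (chr7:75114894-75309262 on the minus strand, mm10) stood at 289, 321, 279 and 327 CPM in CA2/CA3-like nuclei. In CA1-like nuclei it stood at 181, 324, 166 and 214 CPM, and in subicular or cortical nuclei at 200, 312, 268 and 244 CPM. Dentate-like nuclei held 35.5, 19.6, 27.5 and 22.2 CPM of Sv2b and inhibitory-like nuclei 29.8, 28.9, 22.2 and 22.4. The ranges do not overlap: the lowest pyramidal value is 166 CPM and the highest dentate or inhibitory value 35.5. Sv2b in nuclei outside neurons, after nuclei rich in neuronal RNA were left out, was 39.8, 38.6, 44.8 and 37.9 CPM. Its level in dentate-like and inhibitory-like nuclei was therefore no higher than in nuclei outside neurons.

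Sv2a (chr3:96181151-96195521, plus strand) had the reverse order. Inhibitory-like nuclei held 516.5, 583, 522 and 529 CPM, 2.56 to 3.06 times the CA1-like level of 179, 225, 171 and 207 CPM. Subicular or cortical nuclei came next with 324, 368.5, 326 and 386 CPM, and dentate, CA1-like and CA2/CA3-like nuclei overlapped at 171 to 253 CPM. As a share of the UMIs of Sv2a and Sv2b, Sv2a made up 94.6% to 95.9% in inhibitory-like nuclei and 36.8% to 43.6% in CA2/CA3-like nuclei. In dentate-like nuclei its share was 87.7%, 92.7%, 87.9% and 90.4%.

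Sv2c was scarce in CA1-like and CA2/CA3-like nuclei, at 0.770 to 5.69 CPM. Dentate-like nuclei held more, 23.0, 23.8, 10.3 and 21.3 CPM, and the P301S value rests on 155 nuclei. The other vesicle proteins were more even. Synaptophysin (Syp), an abundant vesicle membrane protein, had means from 480 CPM in CA2/CA3-like to 678 CPM in inhibitory-like nuclei. Of the synapsins, which tether vesicles to one another in the reserve pool, Syn2 ranged 1.33-fold and Syn1 1.52-fold between class means, and Syn3 was low throughout with a highest class mean of 13.7 CPM. Synaptogyrin 1 (Syngr1), a relative of synaptophysin, was highest in subicular or cortical nuclei with 115, 108, 168 and 131 CPM and in inhibitory-like nuclei with 114, 112, 137 and 132 CPM, which overlap.

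Among the calcium sensors, Syt1, the sensor of fast synchronous release, was among the 7 even members, with class means from 970 to 1300 CPM. Syt2, its close relative at fast synapses, was found mainly in inhibitory-like nuclei (23.0, 26.8, 25.6 and 27.2 CPM) and subicular or cortical nuclei (21.5, 9.07, 13.9 and 19.95 CPM). Syt2 (chr1:134646677-134762593, plus strand) was at 3.43 CPM or less in each library of the dentate-like, CA1-like and CA2/CA3-like classes. Syt7, a slow and high-affinity sensor, was highest in dentate-like nuclei with 455, 463, 611 and 457 CPM. Inhibitory-like nuclei held 132.5, 98.4, 129 and 109 CPM of Syt7, and the ratio between these classes was 3.43 to 4.74 over the libraries. Syt5 was lowest in CA2/CA3-like nuclei, at 69.0, 69.6, 72.3 and 67.8 CPM, and highest in subicular or cortical nuclei, at 185.5, 288, 218 and 268 CPM. Syt4, which lacks normal calcium binding, was highest in the same nuclei with 274, 324.5, 305 and 345 CPM. Syt13 was highest in dentate-like nuclei in 4 of 4 libraries, with a mean of 149 CPM. Syt11 and Syt17 are taken up again below, because they were as high or higher in some nuclei outside neurons.

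Of the SNARE proteins, syntaxin 1A (Stx1a) had the widest range between class means, 3.76-fold. Subicular or cortical nuclei held 160.5, 186, 184 and 189.5 CPM and dentate-like nuclei 41.3, 45.2, 54.9 and 50.4 CPM of Stx1a, a ratio of 3.35 to 4.12. Snap25 was also highest in subicular or cortical nuclei, with 553, 488.5, 544 and 503.5 CPM, and lowest in CA1-like nuclei, with 307, 299, 280 and 276 CPM. Vamp2, the main synaptobrevin of the forebrain, had class means from 130 to 181 CPM. Vamp1, the synaptobrevin of fast-spiking cells, was highest in inhibitory-like nuclei with 34.6, 41.7, 50.3 and 31.9 CPM and lowest in CA1-like nuclei in 4 of 4 libraries. Nsf was highest in dentate-like nuclei with 540, 526, 470 and 493 CPM against 231, 187, 218 and 242 CPM in inhibitory-like nuclei. Tomosyn (Stxbp5), which holds syntaxin away from synaptobrevin, was highest in dentate-like nuclei in 4 of 4 libraries.

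The complexins had opposite orders. Cplx2 was highest in dentate-like nuclei, with 142, 160, 206 and 149 CPM, and lay between 42.8 and 84.4 CPM in each library of the other 4 named classes. Cplx1 was highest in inhibitory-like nuclei, with 69.1, 70.6, 91.3 and 69.7 CPM. Cplx1 as a share of the UMIs of both genes was 17.8%, 10.6%, 11.8% and 14.7% in dentate-like nuclei, and 60.5%, 62.3%, 61.1% and 52.7% in inhibitory-like nuclei. UMIs are not corrected for transcript length, so such a share is compared between classes only. Of 8 pairs of related members, 4 had a share that differed by at least 20 percentage points between neuron classes in every library. These were Sv2a with Sv2b, Sv2b with Sv2c, Cplx1 with Cplx2, and Rims1 with Rims2. In each of these pairs a partner was no more than level with nuclei outside neurons in some class. By their intervals, Sv2b, Cplx1 and Rims2 in dentate-like nuclei exceeded that level in 0 of 4 libraries, as did Sv2c in CA1-like nuclei. The part of RNA from other cells in these shares was not tested.

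In the active zone, the priming factor Unc13c, known best from cerebellar granule cells, was found, among the neuron classes, mainly in 1. It stood at 71.9, 51.6, 24.8 and 34.6 CPM in subicular or cortical nuclei and at 0 to 4.54 CPM in CA1-like and CA2/CA3-like nuclei. Unc13c in nuclei outside neurons was 19.4, 24.1, 13.1 and 11.4 CPM, so the CA1-like and CA2/CA3-like levels were below those outside neurons in 4 of 4 libraries. Unc13a, the main priming factor of glutamate synapses, had class means within 1.25-fold of each other. Unc13b was highest in subicular or cortical nuclei with 142, 142, 130 and 110 CPM and lowest on average in inhibitory-like nuclei with 51.8, 32.1, 46.9 and 41.3 CPM.

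The Rim proteins tether vesicles and calcium channels to the active zone. Rims1 was lowest on average in CA1-like nuclei, at 34.8, 40.5, 35.6 and 32.0 CPM, and Rims2 lowest in dentate-like nuclei in 4 of 4 libraries, at 24.0, 22.0, 27.5 and 11.1 CPM. Rims1 made up 71.8% to 85.7% of the UMIs of these genes in dentate-like nuclei and 45.1% to 57.3% in CA1-like nuclei. Rims3, a short form, was found mainly in inhibitory-like nuclei (11.5, 28.9, 25.6 and 29.5 CPM) and subicular or cortical nuclei (14.5, 6.98, 23.0 and 18.6 CPM). Of the giant scaffold proteins, Pclo was highest in inhibitory-like nuclei with 181, 142, 156 and 130 CPM, and Bsn was lowest there on average at 94.9 CPM.

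Among the remaining members, Rab3c, a vesicle GTPase that binds Rim, reached 73.0, 98.4, 98.1 and 90.9 CPM in inhibitory-like nuclei and 31.7, 19.6, 13.7 and 18.8 CPM in dentate-like nuclei. Rab3a, the most studied form, ranged 1.67-fold between class means. Beta-synuclein (Sncb), a terminal protein without the aggregating stretch of its relative alpha-synuclein, had class means from 81.9 CPM in CA2/CA3-like to 216 CPM in inhibitory-like nuclei. The endocytic genes Dnm1, a dynamin that cuts vesicles free, and Snap91, a clathrin adaptor, ranged 1.11-fold and 1.55-fold.

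**Figure D2:**
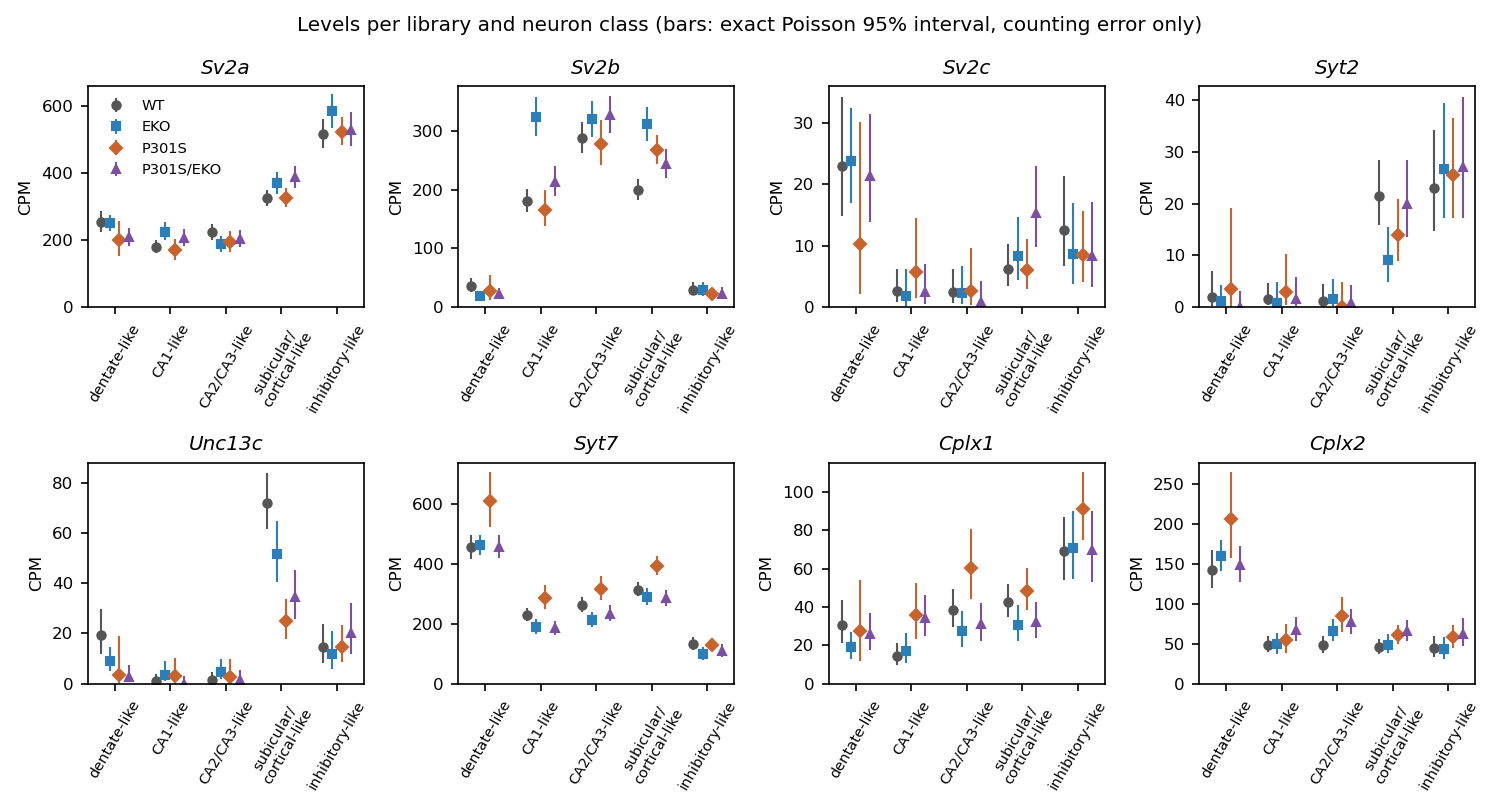
CPM of 8 members in 5 neuron classes; each point is 1 library and each bar its exact Poisson 95% interval. Sv2b is high in the 3 pyramidal classes and low in dentate-like and inhibitory-like nuclei, Sv2a is highest in inhibitory-like nuclei, and Syt7 and Cplx2 are highest in dentate-like nuclei.

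Within inhibitory-like nuclei, sub-clusters separated several members. Syt2 was at 66.3, 71.1, 86.6 and 81.3 CPM in Pvalb-like interneurons, the fast-spiking cells, from 18, 21, 28 and 21 UMIs. In Sst-like interneurons 3 UMIs of Syt2 were found in EKO and 0 in WT, P301S and P301S/EKO, where the exact upper bounds were 16.1, 14.9 and 18.9 CPM. Vip-like or Cnr1-like interneurons held at most 1 UMI of Syt2 in any library. Vamp1 in Pvalb-like interneurons was 77.4, 74.5, 98.95 and 58.1 CPM, against 16.5, 21.9, 29.2 and 26.9 CPM in Vip-like or Cnr1-like ones. Cplx1 made up 73.5%, 90.3%, 88.5% and 77.1% of the UMIs of both complexins in Pvalb-like interneurons. Pclo was at 285, 228, 234 and 152 CPM in Vip-like or Cnr1-like nuclei, above its Pvalb-like and Sst-like levels in each library. Within P301S/EKO its Lamp5-like value, 236 CPM on 6 UMIs, was above the Vip-like or Cnr1-like one. Unc13c was at 21.9, 13.5, 48.3 and 66.6 CPM in Sst-like nuclei and rested there on 3 to 13 UMIs. The Lamp5-like sub-cluster held 12 to 30 nuclei per library. The 2 or 3 UMIs of Sv2c per library amounted to 59.2 to 118 CPM and the interval in WT ran from 13.4 to 398 CPM.

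Each member's level in a neuron class was read beside its level in nuclei outside neurons. Some members, such as Syt11 and Nsf, were as high or higher in some of those nuclei, as given below. The outside level is therefore not that of nuclei lacking the member. Where a member did not exceed it, its neuronal level cannot be told from RNA found outside neurons, and the source was not tested. Over 478, 500, 401 and 642 nuclei outside neurons, with nuclei rich in neuronal RNA left out, every member was compared class by class. The interval of the ratio lay above 1 in 4 of 4 libraries for 22 members in subicular or cortical nuclei, 16 in inhibitory-like, 14 in CA2/CA3-like, 13 in dentate-like and 9 in CA1-like nuclei. The same share over all genes was not counted. Intervals are narrower where a class holds more UMIs, in WT 2280406 in subicular or cortical against 1041749 in dentate-like nuclei. The classes are therefore not ranked by these counts. Syt1 was 2.27 to 4.28 times the outside level over all classes and libraries. Snap25 exceeded the outside level in 4 of 4 libraries in each class but CA1-like nuclei, where it did so in 3 of 4. The interval for Vamp2 lay above 1 in at most 2 of 4 libraries in any class, so its neuronal level cannot be told from RNA found outside neurons at this depth in most classes.

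There were 4 genotype comparisons. The tau transgene was compared with Apoe (P301S over WT) and without it (P301S/EKO over EKO), and the loss of Apoe was compared without the transgene (EKO over WT) and with it (P301S/EKO over P301S). A member was counted as apart in a class when its CPM differed at least 1.5-fold either way and it had at least 50 UMIs over both libraries. Each comparison shares a library with 2 of the others, as P301S over WT and EKO over WT share WT. Beside each count stands the share of all genes with enough UMIs that were apart by the same rule. Over 5 neuron classes, 17 of 158 measured values were apart for P301S over WT, with 14.7% of all genes apart. The counts were 16 of 156 for P301S/EKO over P301S (15.9% of all genes), 16 of 161 for EKO over WT (10.0%) and 7 of 160 for P301S/EKO over EKO (8.64%). The members' shares were near or below those of all genes, so the list as a whole did not stand out in any comparison. Of the 56 values apart, 43 had an interval that excluded equal levels, and the same share among all genes apart was not counted.

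By class, P301S over WT had 5 of 27 members apart in dentate-like nuclei (20.9% of all genes), 4 of 32 in CA1-like (17.6%), 4 of 31 in CA2/CA3-like (16.7%), 3 of 35 in subicular or cortical (10.7%) and 1 of 33 in inhibitory-like nuclei (11.2%). P301S/EKO over P301S had 4 of 27 in dentate-like nuclei (20.7%), 2 of 30 in CA1-like (17.1%), 5 of 31 in CA2/CA3-like (17.8%), 3 of 35 in subicular or cortical (12.9%) and 2 of 33 in inhibitory-like nuclei (13.4%). EKO over WT had 5 of 33 in dentate-like nuclei (10.7%), 3 of 31 in CA1-like (10.5%), 2 of 32 in CA2/CA3-like (9.88%), 3 of 34 in subicular or cortical (9.36%) and 3 of 31 in inhibitory-like nuclei (9.71%). P301S/EKO over EKO had 1 of 33 in dentate-like nuclei (9.61%), 3 of 31 in CA1-like (8.04%), 1 of 32 in CA2/CA3-like (8.88%), 1 of 33 in subicular or cortical (8.76%) and 1 of 31 in inhibitory-like nuclei (7.70%).

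The median log2 ratio of all genes, P301S over WT, was 0.08 in dentate-like, 0.13 in CA1-like, 0.15 in CA2/CA3-like, 0.10 in subicular or cortical and 0.10 in inhibitory-like nuclei. The members' own medians were 0.05, 0.02, 0.07, 0.13 and 0.02, and their summed level differed by at most 0.10 on the log2 scale. For P301S/EKO over P301S the median of all genes was -0.10 in CA1-like and -0.16 in CA2/CA3-like nuclei. With all counts scaled by the median ratio within a class instead of the class total, 9 member values and not 17 were apart for P301S over WT. The split moved with it, from 13 higher and 4 lower to 3 higher and 6 lower. For P301S/EKO over P301S the split was 2 higher and 14 lower by class totals, and 6 higher and 8 lower by median ratio. The direction of the list between the P301S library and the others thus depended on the scaling.

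**Figure D3:**
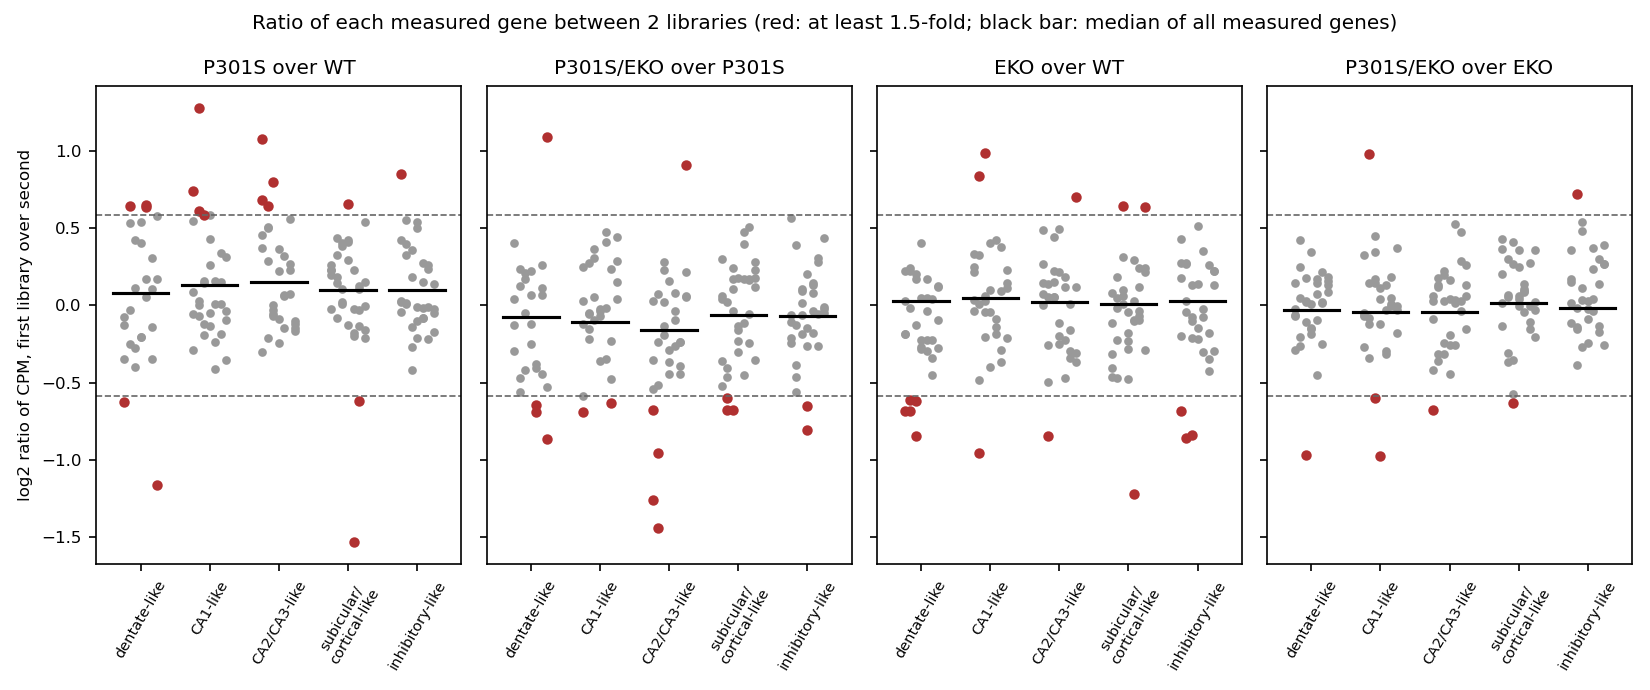
Log2 ratio of CPM between 2 libraries for each member with enough UMIs, in 5 neuron classes and 4 comparisons; red points are at least 1.5-fold apart (beyond the dashed lines) and black bars are the median of all measured genes in that class. Most members lie inside the dashed lines, and the black bars sit above 0 in each class of P301S over WT.

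There were 15 members not 1.5-fold apart in any neuron class or comparison: Syt1, Vamp2, Snap25, Snap91, Sv2a, Sv2c, Syn2, Syn3, Unc13a, Bsn, Pclo, Syp, Sncb, Rab3a and Nsf. Of these, Sv2c had enough UMIs in 2 of 20 class and comparison pairs and Syn3 in 0, so both were too sparse to compare in most classes. The other 13 had enough in all 20. The 22 members that were apart at least once were led by Stxbp5 with 8 pairs, Cplx1 and Rims1 with 6 each, and Sv2b and Unc13b with 4 each. The share of all genes apart at least once over the 20 pairs was not counted, so these counts have no background beside them.

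How many of all genes were apart the same way in a pair of comparisons that share no library was not counted. That background is missing for Cplx1, Rims1, Stx1a and Unc13b below. Cplx1, complexin 1, was apart the same way in both comparisons of the tau transgene in CA1-like nuclei, which share no library. Its levels there were 14.5, 17.2, 35.6 and 34.4 CPM, from 27, 20, 25 and 43 UMIs. Both tau libraries were higher than both others, by 2.46-fold with Apoe (interval 1.37 to 4.40) and 1.99-fold without Apoe (1.15 to 3.58). Outside neurons Cplx1 stood at 34.4, 16.1, 40.4 and 20.2 CPM. The CA1-like level was above the outside level by its interval in 0 of 4 libraries, and the part of RNA from other cells in this difference was not tested. The ratio with Apoe was past 1.5-fold with at least 50 UMIs under 7 of 8 alternatives and that without Apoe under 6 of 8. With each library clustered alone the ratio without Apoe was 0.51 on the log2 scale, short of 1.5-fold. In CA2/CA3-like nuclei Cplx1 was 38.5, 27.2, 60.3 and 30.8 CPM, high in the P301S library alone.

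Rims1 (chr1:22286251-22805994, minus strand) was lower in both libraries without Apoe in CA2/CA3-like nuclei. Its levels were 102, 56.7, 124.5 and 45.4 CPM, from 167, 75, 93 and 59 UMIs, and the ranges with and without Apoe do not overlap. The ratio was 0.556 for EKO over WT (interval 0.418 to 0.734) and 0.365 for P301S/EKO over P301S (0.259 to 0.511). Both held under each of 8 alternative ways of processing. Rims1 over all neurons had the same order, 72.2, 53.2, 83.7 and 50.8 CPM. Inhibitory-like nuclei held 70.1, 38.5, 87.9 and 63.8 CPM, and CA1-like nuclei showed no such order. Outside neurons Rims1 was 49.4, 24.1, 21.8 and 26.6 CPM. Both libraries without Apoe were also shallower per nucleus, and depth and Apoe genotype cannot be told apart in 4 libraries. With nuclei of at least 1100 UMIs alone the log2 ratios were -0.83 and -1.45, against -0.84 and -1.44 with all nuclei. Median UMIs per CA2/CA3-like nucleus were 3070, 2874, 3511 and 2784, all above that cutoff. It therefore does not make depth equal between libraries and cannot separate depth from genotype.

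Stx1a, the plasma membrane syntaxin, moved the other way in the same class. Its CA2/CA3-like levels were 77.0, 125.5, 69.6 and 131 CPM, from 126, 166, 52 and 170 UMIs. Both libraries without Apoe were higher, 1.63-fold for EKO over WT (interval 1.29 to 2.07) and 1.88-fold for P301S/EKO over P301S (1.37 to 2.62), and both held under each of 8 alternatives. In subicular or cortical nuclei, where Stx1a was highest, its level was 160.5, 186, 184 and 189.5 CPM and no comparison reached 1.5-fold. CA2 and CA3 cells were not separated, and whether their mix moved these values was not tested.

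Unc13b, a priming factor, was lower without Apoe in dentate-like nuclei in both comparisons, at 59.5, 38.6, 61.8 and 39.3 CPM. By its interval this level was above that outside neurons in 0 of 4 libraries. The P301S value rests on 18 UMIs and the interval for P301S/EKO over P301S, 0.362 to 1.17, includes equal levels. The ratio of P301S/EKO to P301S was past 1.5-fold with at least 50 UMIs under 2 of 8 alternatives, and that of EKO to WT under 6 of 8. With nuclei of at most 1% mitochondrial UMIs the former turned around, to 0.18 on the log2 scale from -0.64.

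Stxbp5 went opposite ways with the tau transgene in CA2/CA3-like nuclei. It stood at 22.0, 31.0, 46.9 and 19.25 CPM, from 36, 41, 35 and 25 UMIs, and the P301S library was the high one. The P301S library was 2.13-fold above WT (interval 1.30 to 3.49), while P301S/EKO was at 0.621 of EKO (0.362 to 1.05), an interval that includes equal levels. Stxbp5 in P301S also exceeded WT at least 1.5-fold in dentate-like, CA1-like and inhibitory-like nuclei. Outside neurons it did not have that order, at 33.3, 16.1, 20.7 and 31.6 CPM.

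Sv2b, the SV2 form found in pyramidal classes, was higher in EKO in 2 of them. In CA1-like nuclei it was 181, 324, 166 and 214 CPM, from 338, 376, 117 and 268 UMIs, and EKO stood apart from the other 3. EKO exceeded WT 1.79-fold (interval 1.54 to 2.08), and P301S/EKO was at 0.661 of EKO (0.563 to 0.775). P301S/EKO over P301S was 1.29-fold (1.03 to 1.61), short of 1.5-fold, and whether the ratios differ was not tested. In subicular or cortical nuclei EKO was again highest, 1.56-fold over WT (1.37 to 1.78). Its 3 clusters gave 172 to 239, 277 to 513 and 253 to 325 CPM from WT to EKO, so EKO was the higher library in each. With each library clustered alone the log2 ratio in this class was 0.41, short of 1.5-fold. In dentate-like nuclei Sv2b was lower in EKO, 19.6 against 35.5 CPM in WT, at levels no higher than those outside neurons.

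Unc13c had the largest ratio of the 56. In subicular or cortical nuclei 164, 74, 41 and 52 UMIs gave 71.9, 51.6, 24.8 and 34.6 CPM, so that both tau libraries were below both others. P301S was at 0.345 of WT (interval 0.239 to 0.488), and P301S/EKO at 0.670 of EKO (0.460 to 0.968), short of 1.5-fold. The gene sat almost wholly in the largest of 3 clusters of this class, led by Vwc2l and Cux2, which held 67.9%, 60.5%, 60.2% and 63.1% of the class. Within that cluster Unc13c was 97.7, 79.8, 35.8 and 45.7 CPM, the same order. In the other 2 clusters it had 0 to 5 UMIs per library. The mix of cells within the largest cluster was not examined, and whether it moved the values there was not tested.

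**Figure D4:**
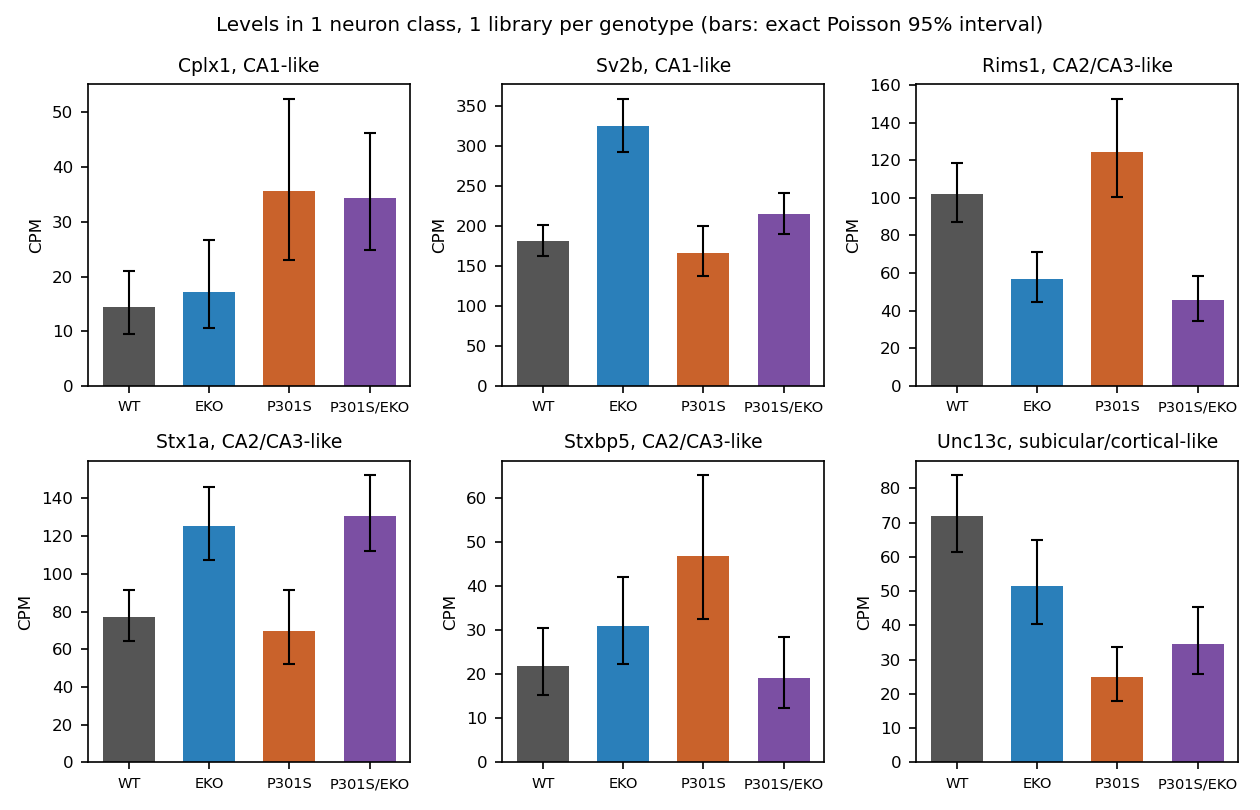
CPM of 6 members in 1 neuron class each, with 1 bar per genotype and its exact Poisson 95% interval. Cplx1 is higher in both tau libraries, Rims1 is lower and Stx1a higher in both libraries without Apoe, Sv2b is high in EKO, Stxbp5 in P301S, and Unc13c is lower in both tau libraries.

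Further synaptotagmins were apart in single classes. Syt17 in CA1-like nuclei was 19.8, 39.6, 29.9 and 19.98 CPM, high in EKO, at 2.00-fold of WT (interval 1.27 to 3.17), with P301S/EKO at 0.504 of EKO (0.297 to 0.838). In dentate-like nuclei it was 36.5, 41.0, 54.9 and 29.9 CPM, and the interval for P301S/EKO over P301S, 0.293 to 1.05, includes equal levels. Syt5 in subicular or cortical nuclei was also higher in EKO than in WT, 1.55-fold (1.35 to 1.78). These EKO ratios of Syt17 and Syt5 held under each of 8 alternatives. By its interval, Syt5 in subicular or cortical nuclei was above the outside level in 4 of 4 libraries, and Syt17 in CA1-like nuclei in 0 of 4. Syt11 was highest in P301S in CA1-like nuclei, at 328, 389.5, 501 and 431 CPM, and in dentate-like nuclei, at 320, 367, 498 and 376 CPM. P301S exceeded WT 1.53-fold in the former (1.34 to 1.74) and 1.56-fold in the latter (1.27 to 1.90). Syt13 in CA1-like nuclei was 68.0, 85.3, 102 and 95.9 CPM, lowest in WT. Syt7 in CA1-like nuclei was 230, 189, 286 and 185 CPM, and P301S/EKO was at 0.646 of P301S (0.532 to 0.784). Syt4 in dentate-like nuclei was 149, 118, 96.1 and 99.0 CPM, and P301S was at 0.646 of WT (0.416 to 0.970). Syt2 in subicular or cortical nuclei was lowest in EKO, at 0.422 of WT (0.210 to 0.790) on 13 against 49 UMIs. P301S was at 0.648 of WT (0.377 to 1.08), and with each library clustered alone that log2 ratio was 0.11. Syt2 in subicular or cortical nuclei was above the outside level by its interval in 4 of 4 libraries. Syt13 in CA1-like nuclei, and Syt4 and Syt17 in dentate-like nuclei, were above it in 3 of 4. Syt7 in CA1-like nuclei was above it in 2 of 4, and Syt11 in 1 of 4 in CA1-like and 0 of 4 in dentate-like nuclei.

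Of the vesicle proteins, Syn1 in inhibitory-like nuclei was 99.8, 55.6, 86.2 and 77.9 CPM, lowest in EKO, at 0.557 of WT (0.392 to 0.785). In dentate-like nuclei Syn1 was 70.1, 60.05, 30.9 and 66.6 CPM, and the low P301S value rests on 9 UMIs. Syngr1 in dentate-like nuclei was 54.7, 51.1, 85.8 and 58.1 CPM, and its interval for P301S over WT, 0.939 to 2.55, includes equal levels. Among SNARE regulators, Cplx2 in CA2/CA3-like nuclei was 48.3, 65.8, 84.4 and 77.0 CPM, lowest in WT, and P301S exceeded WT 1.75-fold (1.24 to 2.47). Cplx1 in that class was lower in P301S/EKO than in P301S, at 0.511 (0.325 to 0.801). Cplx1 in subicular or cortical nuclei was 42.5, 30.7, 48.4 and 31.9 CPM, and P301S/EKO was at 0.659 of P301S (0.451 to 0.955). In dentate-like nuclei Cplx1 was 30.7, 19.0, 27.5 and 25.6 CPM, with an interval for EKO over WT of 0.367 to 1.04. Vamp1 in CA1-like nuclei was 20.35, 10.3, 22.8 and 16.8 CPM, lowest in EKO on 12 UMIs. In inhibitory-like nuclei, P301S/EKO was at 0.633 of P301S for Vamp1 (0.386 to 1.01). Stxbp5 was lower in P301S/EKO than in P301S in dentate-like, CA1-like and CA2/CA3-like nuclei, at 0.615, 0.616 and 0.411 of it. The interval excluded equal levels in the last of these (0.236 to 0.706). Cplx1 in CA2/CA3-like, subicular or cortical and dentate-like nuclei was above the outside level by its interval in 0 libraries. Syngr1 in dentate-like and Vamp1 in CA1-like nuclei were also above it in 0. Cplx2 in CA2/CA3-like nuclei, and Stxbp5 in CA1-like and CA2/CA3-like nuclei, were above it in 1 library. Syn1 and Stxbp5 in dentate-like nuclei were above it in 2, and Syn1 and Vamp1 in inhibitory-like nuclei in 3.

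In the active zone, Rims1 in dentate-like nuclei was 85.4, 55.9, 96.1 and 66.6 CPM, lower in both libraries without Apoe, with EKO at 0.654 of WT (0.484 to 0.884). In subicular or cortical nuclei Rims1 was 79.8, 68.4, 88.4 and 55.2 CPM, and P301S/EKO was at 0.625 of P301S (0.471 to 0.823). In inhibitory-like nuclei EKO was the low library, at 0.550 of WT (0.358 to 0.830), and P301S/EKO was 1.66-fold above EKO (1.07 to 2.60). Rims2 in subicular or cortical nuclei was 66.2, 69.1, 71.4 and 44.6 CPM, low in P301S/EKO, at 0.624 of P301S (0.455 to 0.849) and 0.645 of EKO (0.466 to 0.888). In dentate-like nuclei P301S/EKO was at 0.505 of EKO for Rims2, on 13 against 37 UMIs. Rims3 in subicular or cortical nuclei had an interval for P301S over WT of 0.971 to 2.61. Unc13b in CA2/CA3-like nuclei was 86.75, 89.99, 112.5 and 70.1 CPM, and P301S/EKO was at 0.623 of P301S (0.458 to 0.848). In inhibitory-like nuclei Unc13b in EKO was at 0.619 of WT (0.383 to 0.985). Dnm1, the endocytic dynamin, was 168, 144.5, 238 and 136 CPM in inhibitory-like nuclei, highest in P301S, and P301S/EKO was at 0.570 of P301S (0.455 to 0.711). Rab3c in CA2/CA3-like nuclei was 23.2, 28.0, 37.5 and 29.3 CPM, with an interval for P301S over WT of 0.955 to 2.70, and in dentate-like nuclei its interval for EKO over WT was 0.371 to 1.04. By its interval, Rims2 in dentate-like, Unc13b in inhibitory-like and Rab3c in CA2/CA3-like and dentate-like nuclei were above the outside level in 0 of 4 libraries. Rims3 in subicular or cortical nuclei was above it in 1 of 4, and Rims1 and Dnm1 in inhibitory-like nuclei in 2 of 4. The others of this paragraph were above it in 4 of 4. Many of these ratios rest on few UMIs, and 42 of the 56 fell short under at least 1 alternative.

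A list of 63 other presynaptic genes was counted in the same way. Over 5 neuron classes, 28 of 220 measured values were apart for P301S over WT (14.7% of all genes) and 30 of 213 for P301S/EKO over P301S (15.9%). The counts were 20 of 237 for EKO over WT (10.0%) and 18 of 229 for P301S/EKO over EKO (8.64%). The largest ratio was that of Synpr, synaptoporin of the vesicle membrane, in subicular or cortical nuclei, at 31.5 CPM in P301S against 74.55 in WT and 87.1 in P301S/EKO. Synpr in dentate-like nuclei was 240 CPM in P301S against 510 in WT and 555 in P301S/EKO. Stxbp5l, another tomosyn, was 73.2 CPM in P301S/EKO against 177.5 in P301S in inhibitory-like nuclei.

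Members were also counted in nuclei outside neurons, and how much of that RNA came from neurons was not tested. Their summed level, as a percentage of the same library's neurons, was 99.4, 82.6, 75.8 and 85.8 in microglia-like nuclei. It was 92.9, 88.0, 80.5 and 87.0 in oligodendrocyte-like nuclei, 64.8, 42.9, 43.4 and 51.4 in astrocyte-like nuclei, 66.2 to 85.9 in oligodendrocyte precursor-like and 34.0 to 57.8 in endothelial-like nuclei. Many of these nuclei were mixed, meaning that their share of 18 neuronal reference transcripts exceeded 50% of the CA1-like median. Mixed nuclei made up 80.1%, 46.5%, 59.2% and 53.0% of microglia-like nuclei and 20.1%, 0.985%, 6.72% and 3.43% of astrocyte-like nuclei. Without them the members still stood at 78.9%, 66.7%, 56.1% and 68.9% of the neuronal level in microglia-like nuclei and at 52.4%, 41.4%, 38.8% and 47.2% in astrocyte-like nuclei.

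**Figure D5:**
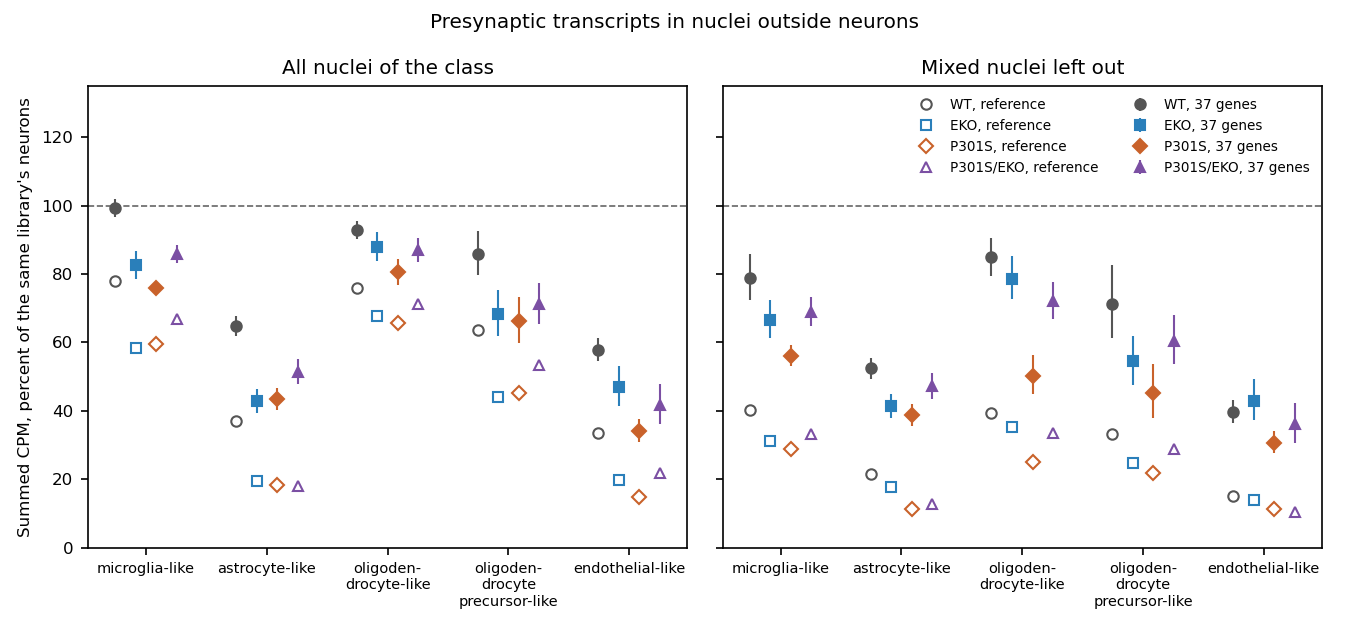
Summed CPM of the 37 members (filled, with 95% interval) and of 18 neuronal reference transcripts (open) in 5 classes outside neurons, as a percentage of the same library's neurons, with all nuclei (left) and without mixed nuclei (right). The members stand above the reference sum throughout, and among microglia-like and astrocyte-like nuclei the WT library has the highest member level. Mixed nuclei were picked by the reference transcripts, so the right panel lowers the reference sum by that choice.

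The members were not alike outside neurons. In unmixed astrocyte-like nuclei Sv2b was at 9.11% to 17.3% of its neuronal level and Syt1 at 14.1% to 26.6%, while Snap25 was at 32.1% to 61.7%. Vamp2 stood at 94.3% to 121% there. Syt11, a synaptotagmin that does not bind calcium, was at 121% to 129% of its neuronal level in unmixed oligodendrocyte-like nuclei. Its level there was 449, 479, 669 and 534 CPM, against 353, 389, 517 and 443 CPM in all neurons, and in WT the interval of the ratio lay above equality. Nsf in unmixed oligodendrocyte-like nuclei was at 141%, 175%, 61.8% and 108% of its neuronal level, with the interval above equality in WT and EKO. Unc13c in unmixed oligodendrocyte precursor-like nuclei was at 312%, 407%, 151% and 678%, on 3, 4, 1 and 6 UMIs, with the interval above equality in EKO and P301S/EKO. Syt17 in unmixed astrocyte-like nuclei was 16.55, 55.2, 78.8 and 66.7 CPM from 6 to 18 UMIs. Its level in neurons was 27.35, 38.4, 31.4 and 29.55 CPM, and the interval of the ratio lay above equality in P301S and P301S/EKO. Over unmixed nuclei of the microglia-like class, the median member was at 62.6% of its neuronal level and the median reference transcript at 67.8%. For the astrocyte-like class these were 49.6% and 36.3%. Mixed nuclei were picked by the reference transcripts, so leaving them out lowers the reference level by that choice. In the microglia-like class single reference transcripts ran from 23.5% to 111%, so their sum need not follow their median.

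Members also differed between libraries outside neurons. In astrocyte-like nuclei, P301S over WT had 11 of 16 measured members apart, 10 of them lower, with 34.1% of all genes apart. EKO over WT had 7 of 16 apart, all lower (23.0%). Syt1 is an example, with 522, 225, 245 and 201 CPM, high in the WT library that also had the most mixed astrocyte-like nuclei. Without mixed nuclei Syt1 was lower than in all nuclei in the WT library, at 26.6% of its neuronal level against 44.5%. WT was still the highest library then, since EKO stood at 15.5%, P301S at 14.1% and P301S/EKO at 14.7%. P301S/EKO over P301S had 2 of 10 members apart in astrocyte-like nuclei (19.5%) and P301S/EKO over EKO 3 of 10 (27.6%). In microglia-like nuclei 3 of 33 members were apart for P301S over WT (20.6%), 3 of 31 for P301S/EKO over P301S (18.8%), 9 of 29 for EKO over WT, all lower (20.9%), and 3 of 25 for P301S/EKO over EKO (14.2%). In oligodendrocyte-like nuclei 3 of 28 (18.3%), 2 of 26 (18.0%), 8 of 28 (17.6%) and 5 of 22 (15.5%) were apart in the same order. Mixed nuclei likewise made up 80.1% of microglia-like nuclei in WT against 46.5% in EKO, so the same limit applies to EKO over WT there. The part that mixed nuclei play in each of these counts was not tested.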

How the data were processed

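Single nuclei of pooled mouse hippocampi were profiled by 10x 3′ sequencing in 4 libraries, 1 per genotype. The authors deposited a count matrix per library, holding whole-number counts of unique molecules (UMIs) per gene and barcode. Per the submitters' processing notes, Cell Ranger, Seurat and the mm10 build were used; the labels used here give neither versions nor settings. The matrices were used as deposited, with no value rescaled.

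Nuclei entered where their barcode had 200 or more genes and no more than 5% of UMIs from mitochondrial genes. Scrublet scores were computed, and because its own threshold called 1, 1, 0 and 0 barcodes it was not used; instead the highest scores were removed, as a share that grew with the number of nuclei (242, 238, 69 and 249 barcodes). The libraries were clustered together (scanpy 1.11.5, igraph 0.11.9; 2000 variable genes, 30 components, 15 neighbours, Leiden resolution 1), giving 18 clusters. A cluster was named where at least 3 of a type's markers were 1.5-fold higher in it. UMIs were summed per class and library and given as CPM. Intervals are exact (Poisson for a level, Clopper-Pearson for a share, conditional binomial for a ratio). Log2 ratios add 0.5 UMI to each sum. The log2 ratios and their intervals were tested on simulated Poisson class sums. Filtering, doublet removal, clustering, cluster naming and variation between pools were not simulated. Gene positions are from the GENCODE annotation of mm10.

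The members and the gene lists were chosen with earlier results of these data known. All members were described, with values in every library for members at least 1.5-fold apart in a comparison or differing most between classes, and up to 4 of the largest ratios per comparison for the other presynaptic genes. Leaving out dentate-like nuclei was an alternative chosen after seeing the data. Counting at other depths, scalings, filters and clusterings was also tried. Other genotypes were not analysed here.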

Additional observations from a re-analysis of the deposited data

Results flagged for a closer look

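Stxbp5 in CA2/CA3-like nuclei had opposite log2 ratios for the tau transgene, 1.08 with Apoe (P301S over WT) and -0.68 without Apoe (P301S/EKO over EKO). As a genotype has 1 library, the difference between these ratios was not tested. The interval of the ratio without Apoe included equal levels. Stxbp5 in this class was above the outside level by its interval in 1 of 4 libraries.

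Sv2b had opposite log2 ratios for EKO over WT in different neuron classes, -0.84 in dentate-like nuclei against 0.84 in CA1-like and 0.64 in subicular or cortical nuclei. This difference was not tested either. The dentate-like value rests on 33 and 37 UMIs of Sv2b, at levels below those outside neurons.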

How the results depend on the processing

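Of 637 recomputed values, 76 counts and class values stayed within the limits set for them and 9 moved. With class totals replaced by median ratios, 9 member values over the 5 neuron classes were apart for P301S over WT (13.2% of all genes). With at least 200 UMIs required over both libraries, fewer values could be measured. Then 3 member values were apart for P301S over WT (6.46% of all genes) and 1 for P301S/EKO over EKO (3.72%). The counts were 5 for EKO over WT (5.35%) and 4 for P301S/EKO over P301S (8.06%). With at least 20 UMIs required, 14 were apart for P301S/EKO over EKO (15.1%). The mean member level in microglia-like nuclei fell from 85.9% to 67.7% of the neuronal level without mixed nuclei. In oligodendrocyte-like nuclei it went from 87.1% to 71.5% without mixed nuclei and to 79.9% with equal weight per nucleus. The values of single members were genotype ratios and ratios between the classes of highest and lowest mean level. A genotype ratio stayed when it was still past 1.5-fold with enough UMIs. A ratio between classes stayed when it was within 1.5-fold of its main value. Of both kinds together 459 stayed, and 1 ratio between classes moved. Of the genotype ratios, 90 kept their direction and fell short, and 2 turned around. Those were Syt2 in subicular or cortical nuclei, P301S over WT, at 0.11 with each library clustered alone, and Unc13b in dentate-like nuclei, P301S/EKO over P301S, at 0.18 with at most 1% mitochondrial UMIs. The cause was not tested. Of the 56 ratios past 1.5-fold, 14 held under all 8 alternatives and 42 were lost under at least 1. Without dentate-like nuclei, an alternative chosen after seeing the data, 12 member values were apart for P301S over WT (13.7%). The counts were then 12 for P301S/EKO over P301S (15.0%), 11 for EKO over WT (9.84%) and 6 for P301S/EKO over EKO (8.38%). No paired analysis was possible because each genotype has 1 library.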
